A study of Mus musculus with 8 samples.

Results

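The comparison described here set testes of Tent5c dcat/dcat mice against testes of Tent5c wt/wt mice after busulfan. TENT5C adds adenosines to mRNA tails in the cytoplasm, and the dcat allele removes that catalytic activity. The members were chosen by their labels for genotype and treatment, which gave 4 of the 8 libraries of the series, 2 wt and 2 dcat, each from the testis of a separate mouse. They are called wt 1, wt 2, dcat 1 and dcat 2 below. The adult males, on a C57BL/6 background, had received 1 injection of 20 mg/kg busulfan and were sampled 4 weeks later. The remaining 4 libraries came from wt and dcat males given vehicle, and their values are shown only beside those of the busulfan mice. Poly(A) RNA was read molecule by molecule by nanopore direct RNA sequencing, so that each read gave a transcript and the length of its poly(A) tail in nucleotides (nt). Read counts were compared for all 2783 transcripts of the table, mean tail lengths for the 1188 that had 10 reads or more in every one of the 4 libraries, and tail percentiles for the 512 that had 20 or more. As a model the design has 3 limits: the dcat allele was present in every cell of the animal, the RNA was from whole testis, and each group held 2 mice.

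Poly(A) tails are added in the nucleus and shorten in the cytoplasm, where a few polymerases can lengthen them again. TENT5 proteins are known for extending tails of mRNAs that are translated at the endoplasmic reticulum (ER), many of which encode secreted proteins. Busulfan alkylates DNA and depletes proliferating germ cells, so that the testis comes to be dominated by Leydig cells, which make androgens and INSL3, by Sertoli cells, which nurse germ cells, and by other somatic cells.

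The 4 libraries held 66052 (wt 1), 115425 (wt 2), 61482 (dcat 1) and 96700 (dcat 2) reads. Leydig and Sertoli marker RNA was abundant, which fits the tissue label: the Leydig list reached 49506 and 53775 RPM (reads scaled to 1000000 a library) in the wt libraries and 31847 and 26463 in the dcat libraries, and the Sertoli list 44949 and 43725 against 41931 and 31075. Insl3 gave a large part of the Leydig sum, with 2082 and 4197 reads in wt and 930 and 1329 in dcat. It was the only 1 of the 21 Leydig transcripts that passed the count test, and their median log2 difference was -0.18. Late spermatid RNA was still present. The 38 late spermatid genes that were read took 11415 and 15066 RPM in the wt libraries, 26463 in dcat 1 and 48490 in dcat 2, whereas the vehicle libraries ranged from 124265 to 153206. Dcat 2 therefore stood apart by its germ-cell RNA, and values without it are given beside the counts that rest on it. The part of germ-cell content in any other difference below was not tested, and in these bulk samples fewer cells of a type and less RNA per cell cannot be told apart. Blood-cell RNA ran the other way: the erythroid list took 924 and 771 RPM in the wt libraries, 0 in dcat 1 and 20.7 in dcat 2.

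**Figure D1:**
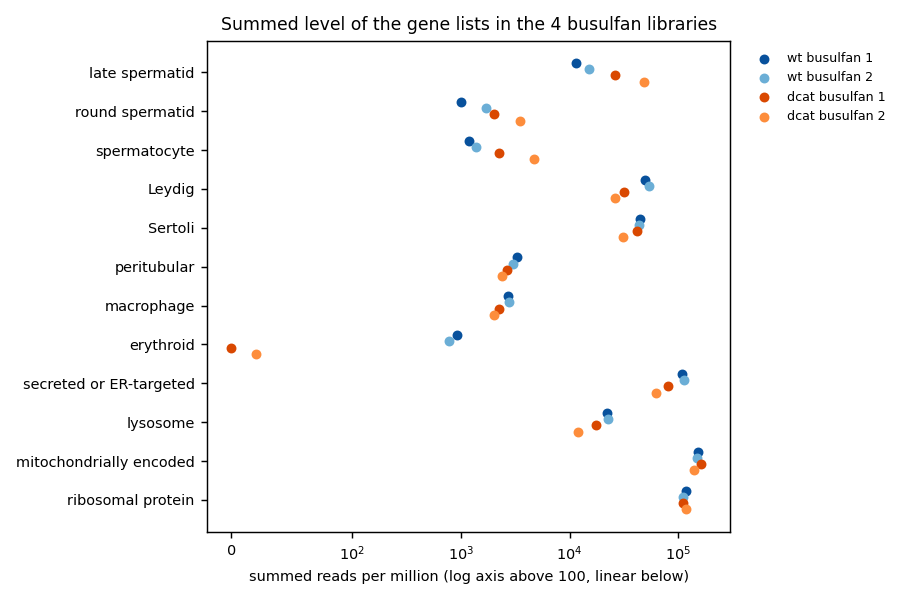
Summed RPM of 12 gene lists in the 4 busulfan libraries, 1 point per library (axis logarithmic above 100 and linear below). The late spermatid list lay at 11415 and 15066 in the wt libraries and at 26463 and 48490 in the dcat libraries, while the secreted or ER-targeted list fell from 109368 and 114213 to 81292 and 62720.

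Tent5c itself was read 18 and 31 times in the wt libraries and 24 and 66 times in the dcat libraries. The log2 difference, dcat minus wt, was 1.07 (SE 0.41, edgeR adjusted p = 0.119), so the level did not pass the test. The allele is a mutation within the coding sequence, and the transcript level therefore does not check the genotype. Its own mean tail was 140 and 133 nt in wt and 108 and 135 nt in dcat (difference -14.8 nt, SE 11.1, limma adjusted p = 0.818).

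Over all reads, the tail distributions of the genotypes differed little. The mean was 112 nt in wt 1, 115 nt in wt 2, 111 nt in dcat 1 and 115 nt in dcat 2, or 113.8 ± 2.37 against 112.7 ± 2.64 nt (SD, n = 2 each), and the difference of -1.08 nt was smaller than either SD (two-sided exact permutation p = 0.667, where 0.33 is the smallest p that 2 mice against 2 allow). The medians were 95.8 and 99.5 nt in wt and 94.3 and 103 nt in dcat. Tails of 30 to 120 nt, called short below, made up 58.7% and 57.0% of wt reads and 60.6% and 56.2% of dcat reads. At the upper end, the 90th percentile was 199.5 and 205 nt in wt and 197 and 195 nt in dcat (difference -6.03 nt, exact p = 0.33). The groups did not overlap there, and reads with tails over 210 nt were likewise 7.90% and 8.94% in wt against 7.55% and 6.63% in dcat.

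Within classes of RNA the differences went both ways. Mitochondrially encoded transcripts, which carry short tails made by a separate enzyme, averaged 66.3 and 67.1 nt in wt and 64.4 and 65.6 nt in dcat. Ribosomal protein mRNAs averaged 90.01 and 92.7 nt in wt and 92.1 and 96.4 nt in dcat. The class of mRNAs for secreted or ER-targeted proteins was the one that moved furthest: 166 and 173 nt in wt against 147 and 143 nt in dcat, or 169.2 ± 4.84 against 145 ± 2.84 nt (difference -24.2 nt, exact p = 0.33). Short tails rose from 19.6% and 16.4% of its reads to 36.9% and 37.1%, and the class supplied 10.9% and 11.4% of wt reads but 8.13% and 6.27% of dcat reads. With the 8 transcripts of the class that passed the mean tail test taken out of it (a selection made on the same contrast), the class averaged 157 and 164 nt in wt and 164 and 158.5 nt in dcat (difference 1.11 nt), with short tails at 28.6% and 24.6% against 25.8% and 26.6%.

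Transcript by transcript, the mean tail changed in 16 of 1188 tested transcripts (1.35%), which belong to 12 genes. In dcat 12 were shorter (1.01%) and 4 were longer (0.337%), a balance that differed with the tail measure and the model: with medians 16 were shorter and 13 longer, with log2 lengths 14 and 20, and without the mean-variance trend 7 and 0. Among the 9 calls lost without the trend were the 4 longer ones (2 Oaz3 transcripts, Crisp2 and Aldh1a1). At an unadjusted p under 0.05 there were 98 (8.25%). The median difference over all 1188 was 2.85 nt, 700 transcripts (58.9%) lay within 10 nt of 0, and 20 lay beyond 40 nt. Mean tails of the wt and dcat libraries did not overlap in 296 transcripts (24.9%) with dcat longer and in 142 (12%) with dcat shorter. Treating the sequencing run as a block, with a wt and a dcat mouse in each run, raised the 16 calls to 27 (15 shorter, 12 longer), and the 16 were among them.

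**Figure D2:**
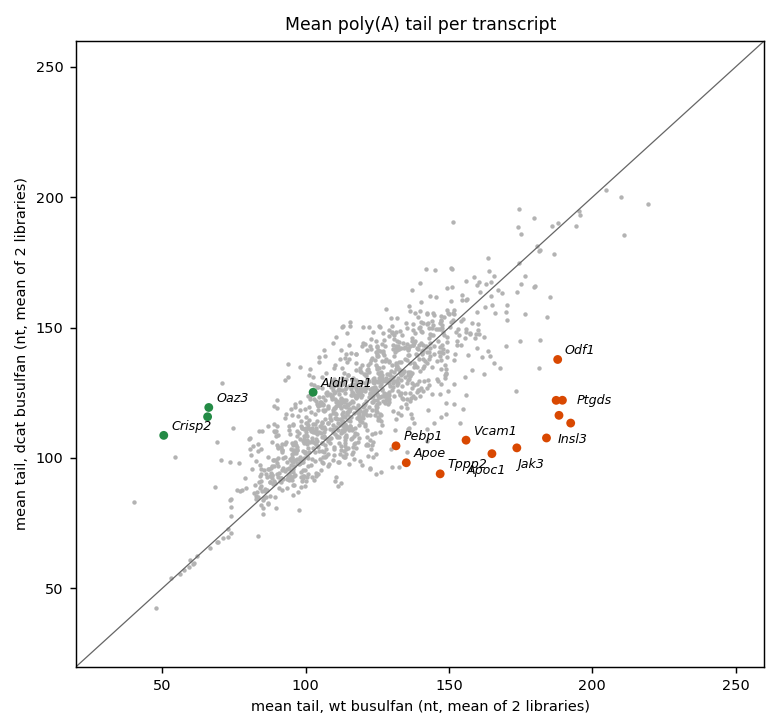
Mean tail length (nt) of 1188 transcripts, mean of the 2 wt busulfan libraries on the x axis and of the 2 dcat busulfan libraries on the y axis, with the 16 transcripts that passed the test coloured orange where shorter and green where longer in dcat. The Insl3 point lies at 184 nt in wt and 108 nt in dcat, far below the diagonal along which most transcripts fall.

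The 3′ ends of these transcripts are shown because the tail begins at their last base. Each line gives the last 30 bases of the annotated transcript (GENCODE vM21, GRCm38), 5′ to 3′, with the poly(A) signal AATAAA in capitals where it is present.
Insl3 and Jak3, shorter in dcat, chr8:71690546-71690575, plus strand: ccaaaaagtctaAATAAAaaagcaacttca
Ptgds, shorter in dcat, chr2:25466709-25466738, minus strand: caaagaAATAAAagtccaaagcaagtcaga
Apoc1, shorter in dcat, chr7:19689481-19689510, minus strand: cagaccAATAAAaaacgtgtagaaggcaaa
Vcam1, shorter in dcat, chr3:116122280-116122309, minus strand: ttgaaccctcaatatatagatacatgtgaa
Odf1, shorter in dcat, chr15:38226706-38226735, plus strand: gtaggaaacttaatacagaattgcatctga
Pebp1, shorter in dcat, chr5:117282654-117282683, minus strand: gtcaagtacaAATAAAaaggcattgcattc
Oaz3, longer in dcat, chr3:94433387-94433416, minus strand: tcctaggaAATAAAgggtagtgcaatcaaa
Crisp2, longer in dcat, chr17:40764734-40764763, minus strand: ttctttcAATAAAgaactcaagctaccaca

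AATAAA, searched on the transcript's strand only, lay within these 30 bases in 13 of the 16 changed transcripts, and in 672 of the 1175 tested transcripts whose sequence was at hand (57.2%). Odf1, Vcam1 and Apoe were the 3 changed transcripts without it. None of the 16 carried ATTAAA without AATAAA, against 149 (12.7%) of the 1175. The Insl3 and Jak3 windows are identical because both annotated transcripts end at the same base, and reads of the 2 genes may have been split between them. The Jak3 values below are therefore not independent of those of Insl3. The same applies to 4 Ptgds transcripts and to 2 Oaz3 transcripts, which end at the same base or within a few bases of it. The 13 of 16 above therefore counts the same AATAAA more than once and is not a share of separate sites.

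On the list of mRNAs for secreted or ER-targeted proteins, 50 transcripts were tested and 8 were shorter in dcat, 0 longer. Of all 1188 tested transcripts 12 (1.01%) were shorter and 4 (0.337%) longer. The 8 were Insl3, the 4 Ptgds transcripts, Apoc1, Vcam1 and Apoe. Crisp2, which encodes a secretory protein and was longer in dcat, was not on this list. The median difference of the 50 was nevertheless close to that of all transcripts, -2.62 nt against 2.85 nt, with a range from -79.1 to 25.5 nt. The list was made with earlier results of these samples on Insl3 and Ptgds known, so its count is not independent evidence of its direction.

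Insl3 (ENSMUST00000034261) encodes the Leydig cell peptide hormone that drives testis descent. Its mean tail was 181 nt over 2082 reads in wt 1, 187 nt over 4197 reads in wt 2, 105 nt over 930 reads in dcat 1 and 109.9 nt over 1329 reads in dcat 2. The dcat libraries both lay far below the wt libraries, at 108 ± 3.13 against 184 ± 4.42 nt (SD, n = 2 each; difference -76.3 nt, SE 2.12, limma adjusted p = 4.17e-14). This was a change of the whole distribution. In wt the most frequent 10-nt bin was 180 to 190 nt in both libraries, with 13.5% and 12.5% of reads, whereas in dcat it was 70 to 80 nt in both, with 8.82% and 8.95%. Short tails rose from 3.46% and 3.002% of reads to 61.2% and 59.6% (adjusted p = 6.34e-15), and tails over 210 nt fell from 19.3% and 23.7% to 3.66% and 3.99%. The shift was larger for the shorter molecules, with the 10th percentile going from 139 and 147 nt to 45.1 and 50.3 nt (difference -95.0 nt, SE 2.79, adjusted p = 2.26e-06) and the 90th from 226 and 232 nt to 174 and 177 nt (difference -53.5 nt). The distribution also widened: the SD between reads was 38.0 and 37.8 nt in wt and 50.7 and 51.3 nt in dcat (adjusted p = 0.000144). With the run as a block the SD test called no transcript, Insl3 included, where it had called 3 of 512.

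Jak3 (ENSMUST00000051995), a cytokine receptor kinase gene annotated to end where Insl3 ends, averaged 170.4 and 177 nt in wt and 106 and 102 nt in dcat (difference -69.8 nt, SE 4.45, adjusted p = 8.99e-09). Its short share went from 6.69% and 5.11% to 59.5% and 68.8%.

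Ptgds encodes lipocalin-type prostaglandin D2 synthase, which is secreted. The transcript with most reads (ENSMUST00000114259) averaged 189.8 and 189.3 nt in wt over 255 and 477 reads, and 117 and 127 nt in dcat over 245 and 355 reads. Both dcat values lay below both wt values, at 122 ± 6.85 against 189.6 ± 0.358 nt (SD, n = 2 each; difference -67.4 nt, SE 3.92, adjusted p = 3.15e-09). Short tails rose from 3.53% and 4.40% to 62.9% and 47.0%. As with Insl3, the lower end moved most (10th percentile -84.0 nt, adjusted p = 4.47e-06) and the upper end less (90th percentile -41.5 nt, adjusted p = 2.18e-06), and the SD between reads rose from 43.9 and 46.7 nt to 61.5 and 56.7 nt (adjusted p = 0.0351, lost without wt 1 at 0.170 and without dcat 1 at 0.243). The other 3 Ptgds transcripts differed by -65.3 nt (ENSMUST00000015234), -72.0 nt (ENSMUST00000114251) and -79.1 nt (ENSMUST00000137417).

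Apoc1, the gene of a lipoprotein component, averaged 162 and 168 nt in wt and 101 and 102 nt in dcat (difference -63.3 nt, SE 7.68, adjusted p = 5.70e-05). Short tails made up 17.9% and 12.8% of wt reads and 63.6% and 65.2% of dcat reads. Vcam1, a cell adhesion receptor inserted into the membrane at the ER, averaged 157 and 155 nt in wt and 99.5 and 114 nt in dcat (difference -49.1 nt, SE 7.56, adjusted p = 0.000733). In Vcam1 the upper end moved most, its 90th percentile going from 233 and 242 nt to 162 and 181 nt (adjusted p = 0.00114, lost without wt 1 at 0.0794, without wt 2 at 0.233 and without dcat 1 at 0.0685). Apoe, the apolipoprotein made by macrophages among other cells, averaged 136 and 135 nt in wt and 89.2 and 107 nt in dcat (difference -36.9 nt, SE 8.05, adjusted p = 0.0220). The groups did not overlap in any of the 3, but the Apoe call was lost without wt 1 (-36.5 nt, adjusted p = 0.0845) and without dcat 1 (-28.0 nt, adjusted p = 0.181).

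**Figure D3:**
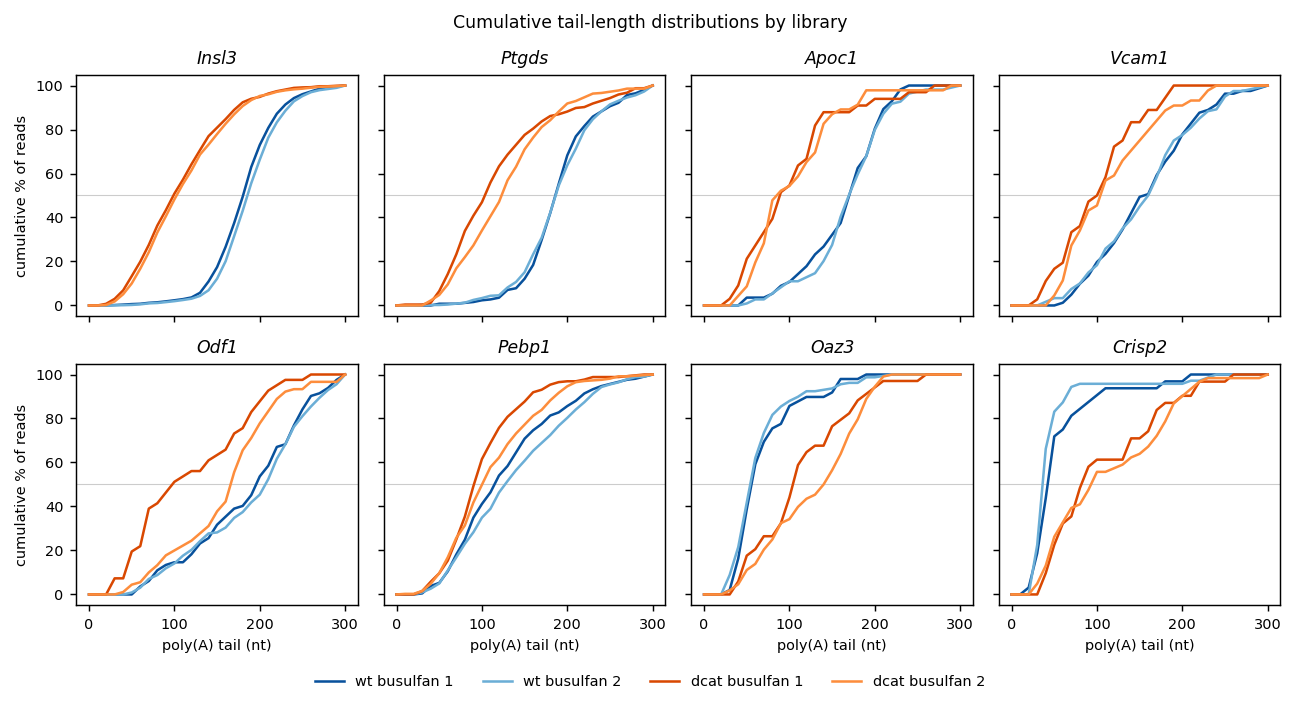
Cumulative percentage of reads (y axis) by tail length in nt (x axis) for 8 genes, 1 line for each of the 4 busulfan libraries, with tails of 300 nt and more in the last bin. For Insl3, Ptgds, Apoc1 and Vcam1 the dcat lines lie to the left of the wt lines over most of their length, while for Oaz3 and Crisp2 they lie to the right.

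Other abundant mRNAs for secreted proteins did not pass the mean tail test. Clu, a secreted chaperone of Sertoli cells, had longer tails than Insl3, at 191 and 197 nt in wt and 194 and 184 nt in dcat (difference -5.25 nt, SE 2.996, adjusted p = 0.739). The wt and dcat libraries overlapped. Defb19, a secreted defensin, measured 176 and 187 nt in wt and 180 and 179 nt in dcat (difference -2.196 nt, adjusted p = 0.954). Lcn2, a secreted iron carrier outside the secreted list that fell in read count, measured 93.2 and 99.1 nt in wt and 106 and 98.6 nt in dcat (difference 6.20 nt, adjusted p = 0.739). Within the Leydig list, Cyp17a1, an enzyme of androgen synthesis, measured 86.3 and 104 nt in wt and 115 and 96.1 nt in dcat. Of the 19 Leydig transcripts tested 3 were shorter (Insl3, Apoc1 and Vcam1) and 1 was longer, with a median of 2.67 nt.

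The one longer Leydig transcript was Aldh1a1, which encodes a retinaldehyde dehydrogenase. It averaged 104 and 101 nt in wt and 123 and 127 nt in dcat (difference 22.6 nt, SE 5.22, adjusted p = 0.0363), without overlap. The call was lost on leaving out any 1 of the 4 libraries (adjusted p from 0.0806 to 0.228), so it is weaker than those of Insl3, Jak3, Apoc1 and the Ptgds transcripts, whose calls were kept in each alternative tried.

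Transcripts of spermatids moved both ways. Of 14 late spermatid transcripts tested 2 were shorter and 2 longer, and their median was 18.4 nt against 2.85 nt for all transcripts. The libraries differ in how much spermatid RNA they hold, as given above, and its part in these differences was not tested. Odf1, a structural protein of the sperm tail, averaged 185 nt over 82 reads in wt 1, 191 nt over 227 reads in wt 2, 116 nt over 41 reads in dcat 1 and 159 nt over 90 reads in dcat 2. Both dcat values were lower, though dcat 1 lay far below dcat 2, at 138 ± 30.4 against 188 ± 4.44 nt (SD, n = 2 each; difference -50.1 nt, SE 9.50, adjusted p = 0.0066). Reads over 210 nt made up 41.5% and 47.6% in wt and 7.32% and 16.7% in dcat, while the short share, 18.3% and 20.3% in wt and 48.8% and 24.4% in dcat, did not pass the test (adjusted p = 0.179). The mean tail call of Odf1 was lost with at least 20 reads a library and without the mean-variance trend.

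Tppp2, a tubulin-binding protein of sperm, averaged 143.5 and 150.3 nt in wt and 88.6 and 99.2 nt in dcat (difference -53.0 nt, SE 10.8, adjusted p = 0.0135). It had 16, 44, 32 and 32 reads in wt 1, wt 2, dcat 1 and dcat 2, and its call was lost without wt 2 (-49.6 nt, adjusted p = 0.0817) and without dcat 1 (-47.7 nt, adjusted p = 0.108). Smcp, a mitochondrial capsule protein of sperm, measured 131 and 118 nt in wt and 78.3 and 109 nt in dcat (difference -30.8 nt, SE 7.48, adjusted p = 0.0528), just outside the threshold. Its 90th percentile passed, at 221 and 211 nt in wt and 152 and 187 nt in dcat (difference -46.8 nt, adjusted p = 0.000603), but that call was lost without wt 1 (-41.7 nt, adjusted p = 0.103), without dcat 1 (-28.8 nt, adjusted p = 0.350) and with the run as a block.

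Oaz3 encodes the antizyme of spermatids, an inhibitor of ornithine decarboxylase in polyamine synthesis. Its main transcript (ENSMUST00000199678) averaged 68.6 and 63.9 nt in wt and 112 and 127 nt in dcat. Both dcat libraries lay above both wt libraries, at 119 ± 10.7 against 66.2 ± 3.33 nt (SD, n = 2 each; difference 53.1 nt, SE 6.99, adjusted p = 0.000146). The wt distribution peaked at 40 to 50 nt in both libraries, and the dcat peak lay at 100 to 110 nt in dcat 1 and 160 to 170 nt in dcat 2. Short tails fell from 87.8% and 83.5% to 64.7% and 41.7% (adjusted p = 0.000348, from 0.111 to 0.568 on leaving out any 1 library). The second Oaz3 transcript (ENSMUST00000203883) differed by 49.98 nt (adjusted p = 0.0158), a call lost without wt 2 (adjusted p = 0.0526) and without dcat 2 (33.9 nt, adjusted p = 0.186).

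Crisp2, a cysteine-rich secretory protein of the acrosome, averaged 54.9 and 46.1 nt in wt and 105.5 and 112 nt in dcat, again without overlap, at 109 ± 4.40 against 50.5 ± 6.27 nt (SD, n = 2 each; difference 58.1 nt, SE 8.69, adjusted p = 0.000571, lost without the trend). The whole distribution moved up, the lower end by less than the upper: the 10th percentile was 23.7 and 27.6 nt in wt and 41.5 and 38.9 nt in dcat. The most frequent bin in dcat was still 40 to 50 nt in both libraries, but it held 12.9% and 13.1% of reads, against 28.1% and 43.7% in the wt bins at 40 to 50 and 30 to 40 nt. The 90th percentile rose from 98.2 and 62.1 nt to 196 and 194 nt (difference 114 nt, adjusted p = 3.28e-08). In the vehicle libraries, where spermatids are plentiful, Crisp2 tails were long in both genotypes: 149.7 and 163 nt in wt, 131 and 166 nt in dcat. Oaz3 likewise measured 143 and 148.5 nt in wt and 145 and 149 nt in dcat after vehicle.

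For mRNAs of the proteins that compact sperm DNA, no mean tail passed the test. Prm1 measured 112 and 134 nt in wt and 143 and 140 nt in dcat (difference 19.0 nt, adjusted p = 0.123), and Tnp2 131 and 124 nt against 148 and 142 nt (difference 17.9 nt, adjusted p = 0.135). The wt and dcat libraries did not overlap in either gene, with dcat longer, as held for 296 (24.9%) of all 1188 transcripts. Prm2, at 93.1 and 118 nt in wt and 94.7 and 129.96 nt in dcat, differed more between mice of 1 genotype than between genotypes (difference 6.91 nt). Meig1, a meiosis and sperm head factor, was higher in both dcat libraries, 111 and 108 nt against 146 and 142 nt (difference 34.7 nt, adjusted p = 0.0777).

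**Figure D4:**
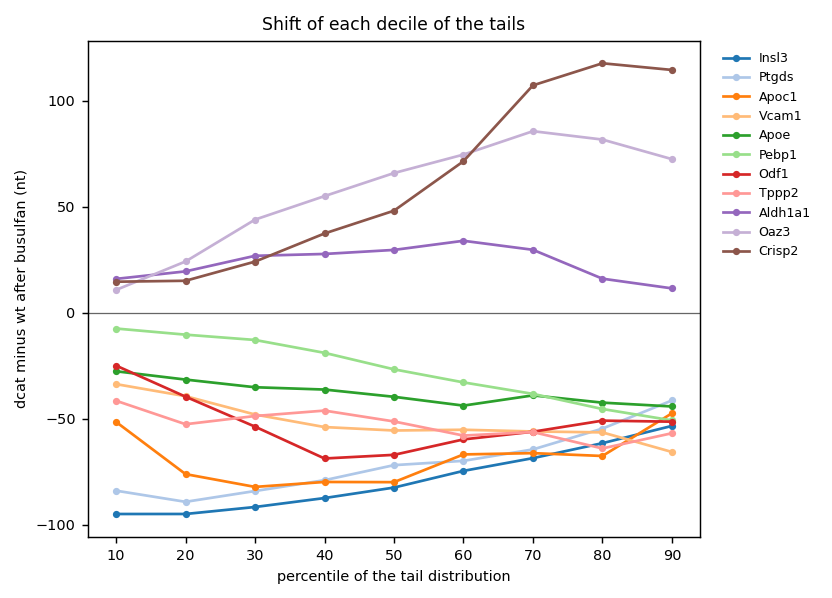
Difference in tail length between genotypes, dcat minus wt in nt (y axis), at each decile of the distribution from the 10th to the 90th (x axis), for 11 of the 12 genes that passed the mean tail test (Jak3 is not drawn). Insl3 runs from -95.0 nt at the 10th to -53.5 nt at the 90th percentile, Pebp1 the other way from -7.52 to -50.8 nt, and Crisp2 rises from 14.6 to 114 nt.

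Pebp1, a lipid- and kinase-binding protein of the cytosol, was shorter without belonging to the secreted or the germ-cell lists. It averaged 126 and 137 nt in wt and 98.5 and 111 nt in dcat (difference -26.9 nt, SE 4.604, adjusted p = 0.00236), without overlap. In contrast to Insl3, its lower end moved less than its upper end: the 10th percentile went from 59.5 and 58.0 nt to 51.9 and 50.5 nt (difference -7.52 nt), whereas the 90th went from 214 and 228 nt to 157 and 182 nt (difference -50.8 nt, adjusted p = 1.07e-08). The mean tail call was lost without the trend, with at least 20 reads a library and without dcat 1 (-20.8 nt, adjusted p = 0.0982).

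The size of the change differed between deciles. Insl3, Ptgds and Jak3 shifted as a whole, most at the bottom. Apoc1 shifted by -51.6 nt at the 10th percentile, -82.2 nt at the 30th and -47.5 nt at the 90th, so most in the middle. For Odf1 the averages were -25.0, -68.8 and -51.5 nt at the 10th, 40th and 90th percentiles, but the 2 dcat mice differed in shape. Its 40th percentile was 179 and 187 nt in wt, 72.7 nt in dcat 1 and 155 nt in dcat 2. The 90th was 259 and 271 nt in wt, 207 nt in dcat 1 and 221 nt in dcat 2. Vcam1, with -33.7 nt at the 10th and -65.7 nt at the 90th percentile, and Pebp1 shifted most at the top. Of the genes with longer tails, Oaz3 gained most in the upper part, 85.6 nt at the 70th percentile against 10.7 nt at the 10th, whereas Aldh1a1 gained most in the middle, 33.9 nt at the 60th percentile against 15.9 nt at the 10th and 11.4 nt at the 90th.

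Measured by the share of short tails, 15 of 1188 transcripts changed (1.26%), 11 with more short tails in dcat (0.926%) and 4 with fewer (0.337%), against 7.74% at an unadjusted p under 0.05 (23 with the run as a block). The 8 secreted or ER-targeted transcripts with shorter mean tails were among the 11. On leaving out 1 library 5 to 7 of the calls remained, those of Insl3, Jak3 and 3 Ptgds transcripts each time. Apoc1 lost its call without wt 2, without dcat 1 and without dcat 2 (adjusted p up to 0.127). On leaving out any 1 library Vcam1 had one from 0.138 to 0.454, Apoe from 0.127 to 0.639 and Tppp2 from 0.170 to 0.451. Beyond the genes above, Pgp, a phosphatase of glycolytic by-products, had fewer short tails in dcat, 70.6% and 67.6% against 37.0% and 37.5% (adjusted p = 0.0457, from 0.503 to 0.784 on leaving out any 1 library). The 10th percentile of tails changed in 7 of 512 transcripts (1.37%, and 10.4% unadjusted), 6 of them lower in dcat (1.17%), and in 18 with the run as a block. The 1 that was higher (0.195%) was the histone gene H3f3a, at 39.8 and 43.2 nt in wt and 65.0 and 66.1 nt in dcat (adjusted p = 0.0358), a call lost on leaving out any 1 library (adjusted p from 0.101 to 0.381). The 90th percentile changed in 13 of 512 (2.54%, and 7.81% unadjusted), 9 lower (1.76%) and 4 higher (0.781%). Calr, an ER chaperone, was among the higher ones with 189 and 173 nt in wt and 262 and 222 nt in dcat (difference 61.0 nt, adjusted p = 0.00659), and this call was lost without wt 1 (69.0 nt, adjusted p = 0.0808), without wt 2 (53.0 nt, adjusted p = 0.393) and without dcat 1 (40.7 nt, adjusted p = 0.363). Agt, which encodes angiotensinogen, had a narrower distribution in dcat, the SD between reads going from 62.9 and 60.6 nt to 35.9 and 44.4 nt (adjusted p = 0.0351, lost without wt 1 at 0.186, without wt 2 at 0.0804 and without dcat 1 at 0.243). It was 1 of 3 SD calls in 512 (0.586%, and 6.64% unadjusted), with Insl3 and Ptgds the wider ones (0.391%). Neither the call of Calr nor those of SD were kept with the run as a block.

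Whole distributions can also be compared by the mean distance, in nt, by which reads must be moved to turn one into the other (Wasserstein distance). Over 175 transcripts with at least 50 reads in each library, the median distance between genotypes was 9.84 nt, and the median of the larger distance between the 2 mice of 1 genotype was 11.0 nt. In 25 transcripts (14.3%) the smallest distance between genotypes exceeded the largest within one. Insl3 lay at 76.3 nt between genotypes and at most 6.28 nt within, Jak3 at 69.9 and 7.68 nt, and Ptgds (ENSMUST00000114259) at 67.6 and 15.1 nt. Pebp1 lay at 27.0 and 13.2 nt and Aldh1a1 at 23.4 and 8.41 nt. For Smcp the values were 32.1 and 32.3 nt and for Prm2 20.5 and 35.3 nt, no more between genotypes than within.

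Several large groups held no transcript that passed the mean tail test. Since 16 of all 1188 transcripts (1.35%) passed it, 0 in groups of these sizes lies near that share and does not set them apart. Of 120 ribosomal protein transcripts 0 were called (median difference 2.37 nt), as were 0 of 74 of the nuclear genes for oxidative phosphorylation (median 2.44 nt), 0 of 29 for ER translocation and folding (median 0.44 nt), 0 of 22 lysosomal (median -1.08 nt), 0 of 21 Sertoli (median -0.53 nt), 0 of 19 for steroid and cholesterol synthesis (median 5.25 nt), and 0 of 11 mitochondrially encoded (median -1.25 nt). At the scale of single transcripts, mt-Co1, a subunit of cytochrome c oxidase, showed how closely libraries could repeat, at 70.9 and 71.7 nt in wt and 69.1 and 69.5 nt in dcat.

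In read counts, 162 of 2783 transcripts changed (5.82%), 150 higher in dcat (5.39%) and 12 lower (0.431%). The median log2 difference of all transcripts was 0.20 with the scaling used (trimmed mean of M values) and 0.06 with median-of-ratios scaling, and values below are to be read against it. The number rests on the libraries kept: it was 7 without wt 1, 15 without wt 2, 360 without dcat 1 and 13 without dcat 2. In all of the 150 and the 12 the CPM of the genotypes did not overlap, where 826 (29.7%) and 402 (14.4%) of all transcripts did not. Leaving out 1 library could therefore hardly turn their direction, and none turned.

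Germ-cell genes made up a good part of the higher transcripts. Of the 150, which belong to 138 gene symbols, 34 (22.7%) were on the germ-cell lists, against 98 (3.52%) of all 2783 transcripts. Their median level was 22.5 CPM (counts scaled to 1000000 with the trimmed mean of M values) in the wt and 173 CPM in the dcat busulfan libraries, beside 712 and 629 CPM after vehicle. In 140 of the 150 dcat 2 lay above dcat 1, and 83 had at most 3 reads in each wt library. Without dcat 2, 9 of the 150 were still called and their median log2 difference went from 2.92 to 2.13.

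The lists of germ cells show this, given first from spermatocytes to late spermatids. Over all 2783 transcripts 150 (5.39%) were higher and 12 (0.431%) lower. Of 17 spermatocyte transcripts 3 were higher and 0 lower, with a median log2 difference of 1.00. Of 21 round spermatid transcripts 7 were higher and 0 lower (median 1.57), and of 60 late spermatid transcripts 24 were higher and 0 lower (median 1.92). Without dcat 2 the calls fell to 0, 0 and 4, and the medians to 0.23, 0.61 and 1.12. Spermatogonial transcripts numbered 2 and none was called, but their median was 1.26, above that of the spermatocyte list. Without dcat 2 it was 0.28.

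Prm2, the protamine that packs sperm DNA after processing, was read 149 and 155 times in wt and 588 and 1028 times in dcat, or 1950 and 1459 against 9441 and 11172 CPM. Both dcat libraries were well above both wt libraries (log2 difference 2.60, SE 0.31, edgeR adjusted p = 2.47e-05), and the call was kept on leaving out any 1 library. Spem1, needed for shedding of spermatid cytoplasm, was read 1 time in each wt library and 20 and 32 times in dcat (ratio 30.8, exact 95% counting interval 8.10 to 261, adjusted p = 0.000116). The uncharacterised single-exon gene 4933411K16Rik, named after its values were seen because it was kept in each alternative for counts along with Prm2 and Spem1, went from 10 and 16 to 82 and 109 reads (log2 difference 3.12, SE 0.39, adjusted p = 2.58e-05).

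Other spermatid genes rested more on dcat 2. Prm1 was read 47 and 130 times in wt and 150 and 969 times in dcat (log2 difference 2.80, SE 0.46, adjusted p = 0.000663), and without dcat 2 the difference was 1.37 (adjusted p = 0.212), without wt 1 2.41 (adjusted p = 0.0755). Tnp1 and Tnp2, the transition proteins that come before protamines, had 20 and 77 against 97 and 503 reads and 15 and 75 against 107 and 435 reads, with log2 differences of 2.81 and 2.80. Tnp1 lost its call without wt 1 (2.28, adjusted p = 0.0730) and without dcat 2 (1.62, adjusted p = 0.0913), and Tnp2 lost its own without wt 1 (2.196, adjusted p = 0.0655). Ldhc, the lactate dehydrogenase of germ cells, rose from 17 and 35 to 44 and 175 reads (log2 difference 2.23, SE 0.42, adjusted p = 0.00330), with 1.33 (adjusted p = 0.353) without dcat 2 and 2.00 (adjusted p = 0.115) without wt 1.

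The largest fitted increases were in transcripts with 0 reads in both wt libraries, for which only a bound can be given. Against a floor of 3 reads per library, Cby2, a spermatid scaffold protein, was at least 4.14-fold higher in dcat (4 and 17 reads, adjusted p = 0.00685) and Nudt16l2, a Nudix hydrolase relative, at least 3.95-fold (5 and 15 reads, adjusted p = 0.00685). Gstt4, a glutathione transferase, was at least 3.55-fold higher (4 and 14 reads), and Slc2a5, a fructose transporter, at least 3.16-fold (2 and 14 reads). These 4 calls were lost without wt 1, without wt 2 and without dcat 2.

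**Figure D5:**
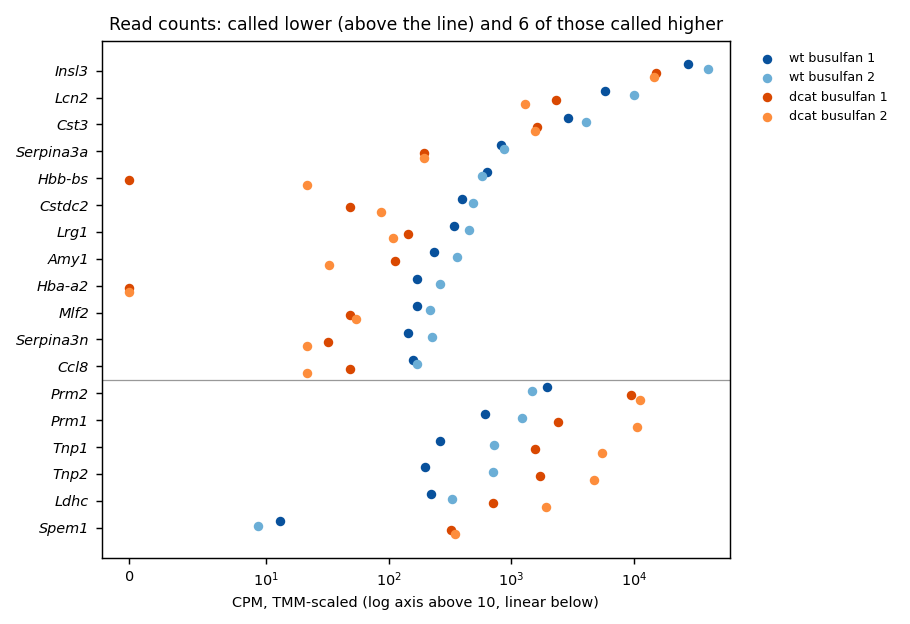
Read level in CPM (axis logarithmic above 10) of the 12 transcripts lower in dcat and of 6 higher ones, 1 point per busulfan library. For Prm2 the dcat points lie at 9441 and 11172 above wt points at 1950 and 1459, and for Hbb-bs they lie at 0 and 21.7 below wt points at 628 and 574.

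Spermatid transcripts did not all rise. Odf1 was read 82 and 227 times in wt and 41 and 90 times in dcat (log2 difference -0.97, SE 0.36, adjusted p = 0.106), Smcp 110 and 315 against 97 and 188 times (-0.29, adjusted p = 0.730), and the main Oaz3 transcript 49 and 158 against 34 and 108 times (-0.30, adjusted p = 0.779). Tppp2, with 16 and 44 against 32 and 32 reads, had a log2 difference of 0.41 (adjusted p = 0.680), and Crisp2, with 32 and 71 against 31 and 61 reads, one of 0.09 (adjusted p = 0.952), which turned to -0.05 with median-of-ratios scaling. None of these 5 passed the test in counts. Prm1, Prm2, Tnp2 and Meig1, whose tails were also described above, were called higher.

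The 12 lower transcripts had a median of 419 CPM in wt and 70.0 CPM in dcat, and of 49.2 and 44.6 CPM after vehicle. The haemoglobin transcripts were among them. Hbb-bs was read 48 and 61 times in wt and 0 and 2 times in dcat (ratio of wt to dcat 46.0, exact 95% counting interval 12.5 to 385, adjusted p = 2.77e-05), and its call was kept on leaving out any 1 library, while DESeq2 gave it no adjusted p. Hba-a2, whose reads can be shared with the near-identical Hba-a1, was read 13 and 28 times in wt and 0 times in both dcat libraries, at least 5.77-fold lower (adjusted p = 0.00172, and 0.0683 without wt 2). The amount of blood left in each testis was not measured, and its part in these values was not tested.

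Lcn2 was the most abundant of the remaining lower genes after Insl3. It was read 441 and 1054 times in wt and 144 and 118 times in dcat, or 5771 and 9923 against 2312 and 1282 CPM, without overlap (log2 difference -2.14, SE 0.37, adjusted p = 0.00137), and its call was lost without wt 2 (-1.69, adjusted p = 0.0867). Of 25 transcripts on the list of protease inhibitors 4 were lower, where 12 (0.431%) of all 2783 were: Serpina3n (11 and 24 against 2 and 2 reads, ratio of wt to dcat 7.39, counting interval 2.64 to 28.6, adjusted p = 0.0174), Serpina3a (63 and 92 against 12 and 18 reads, log2 difference -2.11, adjusted p = 0.00864), Cstdc2 (30 and 52 against 3 and 8 reads, log2 difference -2.63, adjusted p = 0.00411) and Cst3 (220 and 430 against 101 and 144 reads, log2 difference -1.12, adjusted p = 0.0472). By contrast Cstl1 was higher, and the median of the 25 was -0.20. Without wt 1, wt 2 or dcat 2, the calls of Serpina3n, Serpina3a and Cst3 were lost, and without wt 2 that of Cstdc2 was lost (-2.44, adjusted p = 0.0540).

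Of the other lower genes, Ccl8, a chemokine, had 12 and 18 reads in wt and 3 and 2 in dcat (ratio 5.07, counting interval 1.95 to 16.7), and Amy1, an amylase, 18 and 38 against 7 and 3 (log2 difference -2.17, adjusted p = 0.0207). Lrg1, a secreted glycoprotein, had 26 and 48 against 9 and 10 reads (-1.67, adjusted p = 0.0413), and Mlf2 13 and 23 against 3 and 5 (-1.89, adjusted p = 0.0361). Leaving out 1 library ended these calls, in each case without wt 1, wt 2 or dcat 2, and for Mlf2 also without dcat 1. The calls of Ccl8 and Mlf2 were also lost with the run as a block.

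Insl3 was the only gene called in both the count and the mean tail test. It was read 2082 and 4197 times in wt and 930 and 1329 times in dcat, or 27248 and 39514 against 14933 and 14443 CPM. Both dcat libraries were lower (log2 difference -1.18, SE 0.32, adjusted p = 0.0299). This call, unlike that of its tail, was lost on leaving out any 1 library, with log2 differences from -1.43 to -0.89 and adjusted p from 0.0595 to 0.367. Jak3 had 269 and 352 against 121 and 125 reads (-1.06, adjusted p = 0.0549). Ptgds, whose tail shortened almost as much, was read 255 and 477 times in wt and 245 and 355 times in dcat, with a log2 difference of -0.01 (adjusted p = 0.993). Vcam1 (81 and 120 against 36 and 44 reads, -1.06, adjusted p = 0.0976), Apoc1 (56 and 109 against 33 and 46, -0.78, adjusted p = 0.226) and Pebp1 (209 and 421 against 260 and 373, 0.29, adjusted p = 0.687) did not pass the test. Across the 1188 transcripts, tail differences and log2 count differences were weakly related (Pearson r = 0.16, Spearman rho = 0.08, across transcripts that share libraries).

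The list of secreted or ER-targeted genes had 0 transcripts higher and 2 lower (Insl3 and Cst3) of 66, with a median log2 difference of -0.42. CPM of the listed transcripts did not overlap in 29 that were lower and 2 that were higher, where 402 (14.4%) and 826 (29.7%) of all transcripts did so. Lcn2 and Lrg1, which also encode secreted proteins and were called lower, were not on this list. The lysosomal list had 0 of 31 called (median -0.50), with 17 lower without overlap. Leydig genes had 1 of 21 called (Insl3, median -0.18). Sertoli genes had 1 of 24 called, and it was Fabp9, which is also a spermatid gene, higher in dcat at 18 and 85 reads against 11 and 24 (median of the list -0.13), a call lost without wt 1, wt 2 or dcat 2. Among 32 transcripts of glycolysis 6 were higher, where 150 (5.39%) of all 2783 were. These 6 were forms known from germ cells (Ldhc and 3 Gapdhs transcripts among them) as well as Slc2a5 and Tpi1. The median of the 32 was 0.73, and 0.33 without dcat 2. The 139 ribosomal protein transcripts had 0 called and a median of 0.06, which turned to -0.09 with median-of-ratios scaling, and the medians of mitochondrially encoded (0.07 to -0.07), nuclear oxidative phosphorylation (0.05 to -0.10) and translation factor transcripts (0.09 to -0.06) turned likewise.

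Enzymes that lengthen or remove tails, and their cofactors, were on a list of 48 genes, of which 13 were read with 17 transcripts. Of these 2 were higher and 0 lower, where 150 (5.39%) of all 2783 were higher. They were the germ-cell RNA-binding proteins Ybx2 (3 and 0 against 5 and 23 reads, ratio 11.0, exact 95% counting interval 3.41 to 56.8, adjusted p = 0.0269) and Ybx3 (3 and 9 against 10 and 50 reads, log2 difference 2.47, adjusted p = 0.0215), which bind mRNA and do not themselves alter tails. Both calls were lost without wt 1, without wt 2 and without dcat 2. The median of the 17 was 0.89, and none of the 4 with enough reads changed in mean tail.

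After vehicle, the same genotype comparison called 0 of 2783 transcripts in counts (65 at an unadjusted p under 0.05) and 1 of 720 in mean tail, which was Insl3. Its tail was 168 and 183 nt in wt and 148 and 143.5 nt in dcat (difference -29.9 nt, adjusted p = 0.0119), over 206, 302, 141 and 277 reads. The dcat values lay between those of the wt and the dcat busulfan mice, and the most frequent bins in dcat were 120 to 130 and 130 to 140 nt. Ptgds tails measured 156 and 178 nt in wt and 142 and 134 nt in dcat after vehicle (difference -28.98 nt, adjusted p = 0.989), from 17 to 41 reads a library. Odf1 tails measured 182 and 177 nt in wt and 167 and 168.5 nt in dcat (difference -11.4 nt, adjusted p = 0.989).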

How the data were processed

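Poly(A) RNA of whole testis was sequenced directly on nanopore R9 flow cells (kit SQK-RNA002), with 4 extracts, 1 per group, multiplexed in each of 2 runs. The authors basecalled with Guppy 6.1.3, aligned to GENCODE vM17 transcripts (GRCm38) with Minimap2 (2.24-r1122 in the methods, 2.20-r1061 in the submitters' processing notes), demultiplexed with Deeplexicon 1.2 and estimated tails with Nanopolish 0.14. They kept reads of PASS quality and barcode confidence above 0.85, and transcripts with at least 10 reads in 2 libraries of 1 condition. The deposited files hold raw read counts per transcript, and the deposited tail table gives the tail length in nt of each of 621202 reads. Of its read names 176 occur more than once, and 6 tails are under 1 nt. Such filters favour abundant RNA, and molecules without a tail are not captured. Columns with the authors' own fold changes and p-values were not used. All 8 count columns were mapped by name (0 left unmapped), and 2749 of 2783 transcripts had a gene symbol through GENCODE vM21 and the deposited tables.

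Counts were tested with edgeR 4.0.16 (TMM scaling, quasi-likelihood F test, R 4.3.3) over 8 libraries as 4 groups, for dcat minus wt after busulfan. Mean tail, SD, 10th and 90th percentile, and the logit of the share of tails of 30 to 120 nt (offset 0.5), were tested with limma 3.58.1 (moderated, with trend) on the 4 busulfan libraries. Moderation added 14.6 prior degrees of freedom for the mean tail, 25.9 for the short share, 18.0 for SD, 5.05 for the 10th and 355 for the 90th percentile to the 2 left by the mice. Benjamini-Hochberg adjustment ran over all transcripts of a test, and calls were made under 0.05. The tail p-values thus rest on the spread between 2 mice a group together with spread pooled over transcripts, mostly the latter. With the run as a block the prior degrees of freedom for the mean tail were infinite, so its spread was wholly pooled. For counts the dispersions came from all 8 libraries, vehicle included. Library means were compared by exact permutation. Intervals cover counting error only, and 3 reads correspond to 45.4, 26.0, 48.8 and 31.0 RPM, before TMM scaling, in wt 1, wt 2, dcat 1 and dcat 2. Folds against that floor used the TMM-scaled library sizes. The libraries held between 29574 and 129074 reads.

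On simulated data the count test recovered 18% of 2-fold, 58% of 4-fold and 88% of 8-fold changes among 2783 transcripts. The mean tail test recovered 14% of 20 nt, 60% of 40 nt and 92% of 60 nt changes among 1188. False calls among transcripts left unchanged numbered 4 for counts and 6 for mean tails. The simulated tails varied by read sampling only, so their recovery leaves out the spread between mice and can be too high for these data. Named transcripts were a fixed set of TENT5C, Leydig and spermatid genes, those called in mean tail, up to 10 per direction called in counts by size, up to 6 per direction in each other tail measure, and from each list its called and its 2 most read members. Members and gene lists were chosen with earlier results of these data known. The study's methods describe 2 multiplexed busulfan libraries, replicate 1 and 2, each with 1 mouse per group. Replicate numbers were taken to mark that shared run, which the labels themselves do not state. Deviations of same-numbered wt and dcat busulfan libraries from their group means correlated at 0.09 for counts and -0.00084 for mean tails. The run was fitted as a block as an alternative. Other alternatives covered scaling, DESeq2 1.42.0, read minimums, tail summaries and leaving out each library. The comparison with vehicle and its alternatives were added after seeing the data.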

Additional observations from a re-analysis of the deposited data

Results flagged for a closer look

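For 12 transcripts the genotype difference itself differed between the busulfan and the vehicle mice, by a test of that difference (busulfan minus vehicle) over all 8 libraries. In read counts these were 9 of 2783 transcripts, by edgeR with Benjamini-Hochberg adjustment, and 123 with the run as a block. Each was higher in dcat after busulfan, while after vehicle 0 of the 9 were called. The difference of log2 differences was 2.72 for Prm2 (adjusted p = 0.00108), which measured 1950 and 1459 CPM in wt and 9441 and 11172 CPM in dcat after busulfan. It was 3.40 for 4933411K16Rik (adjusted p = 0.00108) and 4.96 for Spem1 (adjusted p = 0.00108). On leaving out each of the 8 libraries in turn, the calls of Prm2 and 4933411K16Rik were kept 8 times and that of Spem1 7 times (without 1 library its adjusted p was 0.0575).

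The remaining 6 were kept in 2 to 4 of the 8. They were Prm1 with 2.94 (adjusted p = 0.0223, 1.51 to 3.64 on leaving out 1 library), Tnp1 with 2.82 (adjusted p = 0.0270), Tnp2 with 2.93 (adjusted p = 0.0223), Spata6 with 4.33 (adjusted p = 0.0223), Gapdhs (ENSMUST00000182067) with 2.78 (adjusted p = 0.0409) and Cby2 with 6.85 (adjusted p = 0.0223). Spata6, a protein of the sperm neck, is named only for this difference. The value of Cby2 is no bound, since both wt busulfan libraries held 0 reads. These transcripts were at 232 to 34560 CPM in the vehicle libraries.

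In mean tail length 3 of 339 transcripts differed in this way by limma, and 3 with the run as a block. For Insl3 the difference was -76.3 nt after busulfan and -29.9 nt after vehicle, so that the 2 differed by -46.5 nt (SE 6.20, adjusted p = 0.00979), and the call was kept on leaving out each of the 8 libraries (-54.0 to -38.9 nt). Jak3 differed by -60.8 nt (adjusted p = 0.0422, kept 2 of 8 times), with vehicle tails of 134 and 141 nt in wt and 117 and 141 nt in dcat. The main Oaz3 transcript (ENSMUST00000199678) differed by 51.8 nt (adjusted p = 0.0422, kept 1 of 8 times). Both wt busulfan libraries, at 68.6 and 63.9 nt, lay below the range of 143 to 149 nt of its vehicle libraries, and the dcat busulfan libraries lay between, at 112 and 127 nt.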

How the results depend on the processing

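In counts, 162 calls became 77 with DESeq2, which gave an adjusted p to 895 transcripts after its own filter (110 of the 162, of which 33 lost their call), and 7 to 360 on leaving out 1 library. Scaling by median of ratios gave 142 calls (122 higher, 20 lower), a stricter filter 144, the run as a block (replicate block) 203 and the 4 busulfan libraries alone 190 (135 higher, 55 lower). In mean tail, 16 calls became 9 with at least 20 reads, 29 with the median, 34 with log2 lengths, 7 without the trend (Insl3, Jak3, Apoc1 and 4 Ptgds transcripts), 27 with the replicate block, and 16 to 24 on leaving out 1 library. The 15 calls of short share became 23 with the replicate block and 5 to 7 without 1 library, the 3 of SD became 6 with the interquartile range, 0 with the replicate block and 1 to 13 without 1 library, the 7 of the 10th percentile became 18 with the replicate block and 5 to 7 without 1 library, and the 13 of the 90th became 7 with at least 50 reads and 7 to 19 without 1 library. Beside those named in the report the block ended no call of a named tail, apart from the 90th percentiles of Odf1 and Agt. The 9 count differences between busulfan and vehicle became 123 with the replicate block and 3 to 257 without 1 library, and the 3 tail differences 1 to 3. The library mean difference of -1.08 nt turned to 1.195 nt with medians and 2.55 nt with equal weight per transcript, and lay between -2.95 and 0.780 nt without 1 library.

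Directions turned for these transcripts, none of them called in that test. For counts on the log2 scale, Ptgds ENSMUST00000015234 went to -0.10 by median of ratios and -0.10 by DESeq2, -0.12 with the filter and -0.12 with 4 libraries, and Crisp2 to -0.049, -0.047, -0.094 and -0.057. Without 1 library the ranges were -0.21 to 0.22 for Ptgds ENSMUST00000114259 (0.0051 without dcat 2), -0.18 to 0.25 for ENSMUST00000015234, -0.20 to 0.083 for ENSMUST00000114251, -0.19 to 0.48 for Crisp2, -0.72 to 0.33 for Smcp, -0.70 to 0.072 for Odc1, -0.98 to 0.44 for Oaz3 ENSMUST00000199678 and -0.76 to 0.45 for ENSMUST00000203883. For mean tails they were -10.7 to 24.6 nt for Prm2, -3.31 to 19.5 nt for Tnp1 and -14.1 to 2.64 nt for Ldhc. The cause was not tested. For the other named transcripts that were tried in the alternatives, no direction turned. Tried were the fixed set and those called in counts or mean tail, and for mean tails also those named for another tail measure. For the rest, such as the tails of Clu, Defb19 and Cyp17a1, the alternatives were not run. Depth limits which tails could be tested: 1188 of 2783 transcripts reached 10 reads in each library and 512 reached 20.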
